A study of Mus musculus with 12 samples.

Results

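The mitochondrial ribosomal protein genes, those with symbols of the form Mrpl or Mrps followed by a number, were followed across the transgenic and Ifng-deficient mice of a bone marrow study. All genes with such a symbol, alone on at least 1 probe set and not a pseudogene, were taken, and the probe sets of a gene were averaged. This gave 77 genes out of 19935 measured genes, from 85 probe sets. The members were chosen by their symbols and selected on no measured value of their own. The family as a whole was picked with earlier results of these data known, values of CD70TG against WT among them, so counts over its members are given as a description. Mrpl53 was measured only by a probe set that it shares with another gene and is not analysed here.

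Gene expression was measured on 12 arrays in bone marrow cells of male C57BL/6J mice aged 10 to 12 weeks, after magnetic enrichment for CD71, the transferrin receptor that red cell precursors carry in large amounts. The 4 groups of 3 mice were WT, CD70TG, Ifng-/- and CD70TG*Ifng-/-. CD70TG mice carry a CD70 transgene (clone F13 in the labels of that group). Ifng-/- mice are labelled as deficient in the gene for interferon-gamma, and CD70TG*Ifng-/- mice combine both. CD70 is the ligand of the costimulatory receptor CD27, and the design asks what the transgene changes in these cells and which of these changes need interferon-gamma. The labels do not say which promoter or cell type drives the transgene, and they number separate mice within each group.

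The mitochondrial ribosome, or mitoribosome, translates the few messenger RNAs made from mitochondrial DNA, which code for core subunits of the respiratory chain and ATP synthase. All its proteins are encoded in the nucleus, made in the cytosol and imported. Some descend from bacterial ribosomal proteins and others were added in the mitochondrial lineage. Red cell precursors depend on mitochondria for haem synthesis and clear them late in maturation.

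The family held 50 genes of the large subunit, of which 31 have a bacterial counterpart and 19 are mitochondria-specific, and 26 of the small subunit, of which 17 have a counterpart and 9 are specific. The symbols do not always match the position: Mrps30 and Mrps18a are large-subunit proteins. Mrps36, the remaining gene, is now known as a component of the 2-oxoglutarate dehydrogenase complex. The genes lay on 17 chromosomes.

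The members' promoters are shown first, as a description of the letters they hold. The part of these letters in the members' changes was not tested. RefSeq windows of GRCm38.p6, from 250 bases before to 50 bases after the annotated start, were found for 68 of the 77 members. The letters CCGGAAG, recognised by ETS factors, were present on either strand in 25 of them (36.8%), against 13.6% of the 15612 measured genes with a window. AAGATGGC, recognised by YY1, was present in 12 (17.6%, against 3.77%), and GCATGCGC, recognised by the nuclear respiratory factor NRF1, in 8 (11.8%, against 4.27%). At least 1 of these 3 was present in 37 members (54.4%, against 19.7%). The E-box CACGTG (7.35% against 9.5%), the GC box GGGCGG (34 of 68 members, against 52.9% of all genes) and CCAAT (38.2% against 41.7%) lay within 4 percentage points of the share in all genes. One longer form each of the ETS, YY1 and NRF1 letters was also searched (17.6% against 6.01%, 7.35% against 1.49%, and 4.41% against 1.61%); these contain the shorter letters and are not separate matches. A match describes the letters and is no evidence of binding, and the shares were not matched for base composition. The sequences below are the 150 bases before the start, 5′ to 3′ on the gene's strand, with matches to CCGGAAG or GCATGCGC in capitals. The first 4 are the members with the largest rises past the threshold in CD70TG that hold such letters there, Mrps17 is a member whose rise passed in every fit with 1 array left out, and Mrps10 is the member with the lowest change. The set was chosen after these values were seen.
Mrpl22, chr11:58171514-58171663, plus strand: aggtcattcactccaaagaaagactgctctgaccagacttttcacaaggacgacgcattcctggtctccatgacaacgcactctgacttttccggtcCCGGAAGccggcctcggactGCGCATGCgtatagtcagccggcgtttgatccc
Mrps22, chr9:98601680-98601829, minus strand: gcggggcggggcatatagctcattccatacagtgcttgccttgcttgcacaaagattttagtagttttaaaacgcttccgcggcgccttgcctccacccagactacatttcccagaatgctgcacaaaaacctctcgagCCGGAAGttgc
Mrpl39, chr16:84735245-84735394, minus strand: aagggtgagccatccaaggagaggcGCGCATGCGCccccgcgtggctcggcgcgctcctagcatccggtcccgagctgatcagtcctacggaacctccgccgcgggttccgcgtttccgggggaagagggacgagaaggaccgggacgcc
Mrpl51, chr6:125192050-125192199, plus strand: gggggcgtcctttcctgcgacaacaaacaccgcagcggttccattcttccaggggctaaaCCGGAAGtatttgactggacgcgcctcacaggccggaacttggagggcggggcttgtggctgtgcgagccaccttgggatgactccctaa
Mrps17, chr5:129715347-129715496, plus strand: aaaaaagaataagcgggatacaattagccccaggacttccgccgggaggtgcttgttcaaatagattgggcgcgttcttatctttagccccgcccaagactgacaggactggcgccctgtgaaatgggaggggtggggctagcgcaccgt
Mrps10, chr17:47369047-47369196, plus strand: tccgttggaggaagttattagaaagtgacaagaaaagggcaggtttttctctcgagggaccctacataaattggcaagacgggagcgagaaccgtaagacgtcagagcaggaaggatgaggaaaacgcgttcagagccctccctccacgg

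In Mrpl22 the CCGGAAG match ran from 53 to 47 bases before the start, and a GCATGCGC match, read on the other strand, from 33 to 26. In Mrps22 the CCGGAAG match ran from 11 to 5 bases before the start. Within the family the letters did not set apart the genes that rose: at least 1 of the 3 shorter letter strings was present in 13 of the 23 members with a window that rose in CD70TG and in 24 of the 45 that did not pass.

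Each deposited log2 value is centred on the median of its probe set over the 12 arrays, so absolute levels are not held, and the values ran from -3.25 to 6.70. From the rounding of the numbers, each gene could be placed in a higher class (an original log2 level of at least 8) or a lower one; 13 of the members (16.9%) and 13.7% of all genes were in the higher class. All 8 erythroid marker genes, 8 of 9 proliferation genes and 4 of 8 neutrophil markers were in the higher class. None of the 12 macrophage, 8 B lineage, 4 early granulocyte, 5 eosinophil and basophil, 7 T and NK or 3 megakaryocyte markers was. The probe set of Ifng did not check the labels: its change in Ifng-/- against WT was -0.10 ± 0.09 (SE, limma adjusted p = 0.632), and what was deleted from the gene is not given in the labels. The change of Cd70 in CD70TG against WT was 0.26 ± 0.12 (limma adjusted p = 0.18). The files hold no depth, and the small number of arrays limits the precision.

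In CD70TG against WT, 26 of the 77 mitochondrial ribosomal protein genes rose, 0 fell and 51 did not pass (33.8% higher, where 8.23% of all genes were called higher and 2.7% lower; limma, Benjamini-Hochberg adjusted p under 0.05 over all 19935 genes). The members' median log2 change was 0.27, against -0.02 for all genes, and 72 of 77 lay above 0. In 53 members the 3 CD70TG arrays all lay above the 3 WT arrays and in 0 all below (17.6% and 13.5% of all genes). Over all functions, 22.5% of the genes in the higher level class were called higher (median 0.19), and in that class 8 of 13 members rose. In the lower class 18 of 64 members rose, against 5.96% of the genes there, whose median was -0.04.

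**Figure D1:**
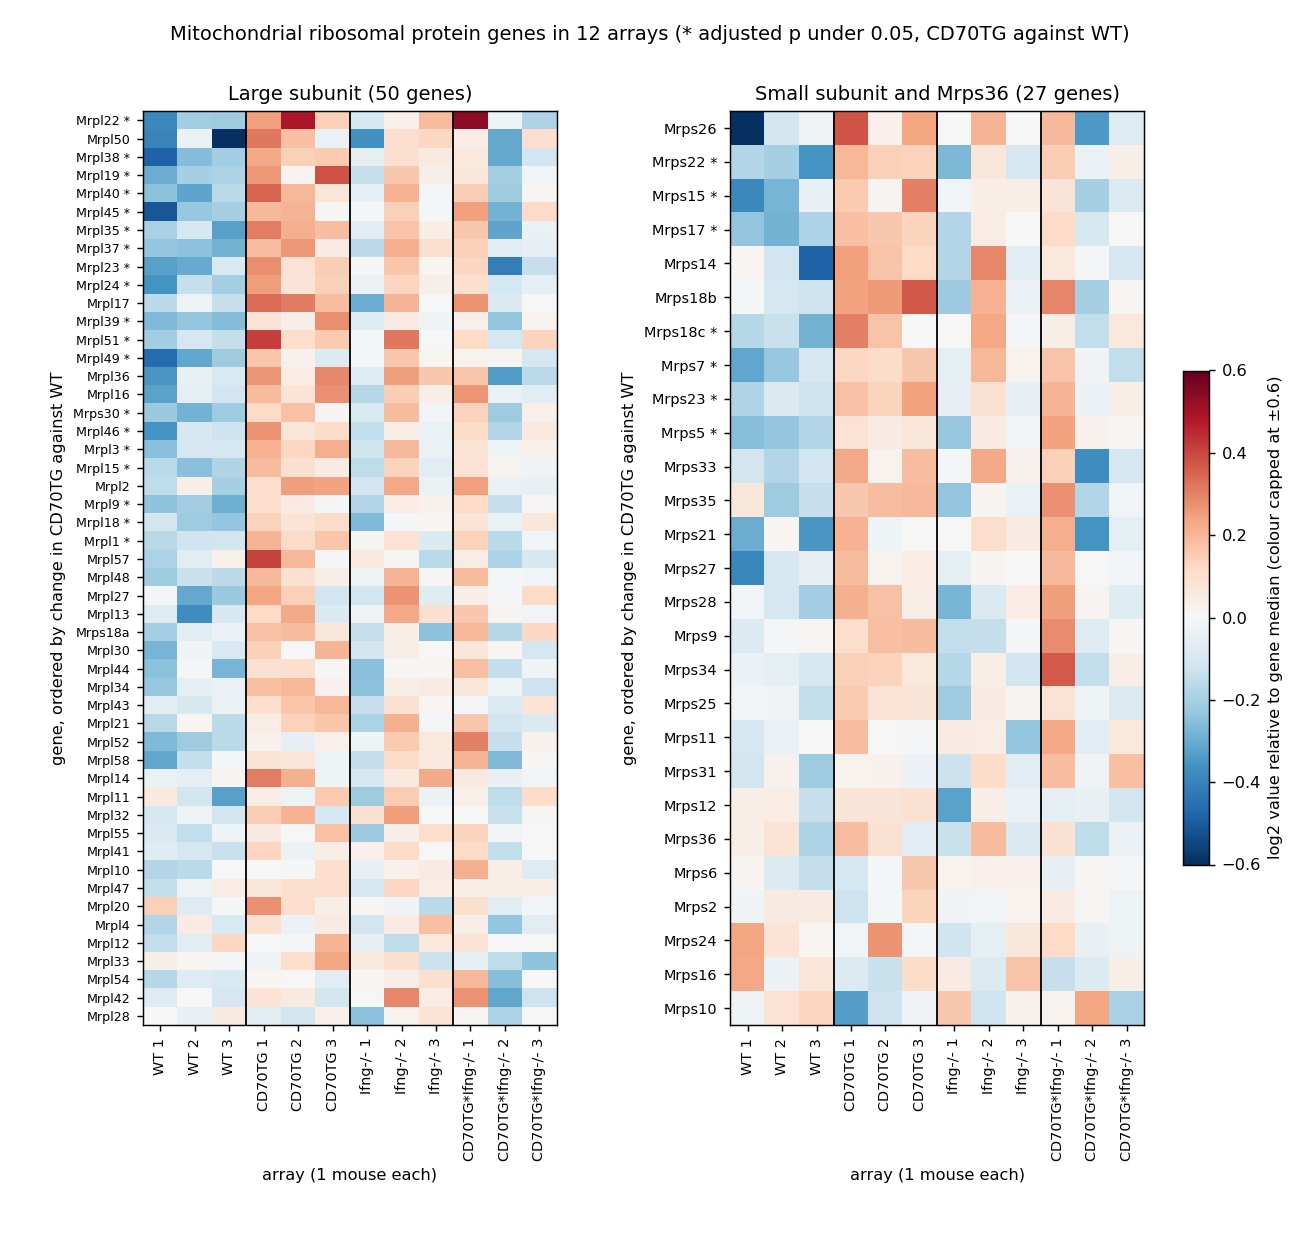
Log2 value relative to the gene's median (colour, capped at 0.6 on either side) of the 77 members (rows, ordered by the change in CD70TG against WT) in the 12 arrays (columns, 1 mouse each), with an asterisk for adjusted p under 0.05 in that comparison. The 3 WT columns are mostly blue and the 3 CD70TG columns mostly red, while the arrays of the Ifng-/- and CD70TG*Ifng-/- groups differ among themselves, with Ifng-/- 2 and CD70TG*Ifng-/- 1 mostly red.

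In the large subunit 19 of 50 members rose, 0 fell and 31 did not pass. Mrpl22, a protein that lines the tunnel through which the new peptide leaves, had the largest change. The 3 WT arrays had -0.388, -0.208 and -0.215, the CD70TG arrays 0.246, 0.484 and 0.143, the Ifng-/- arrays -0.098, 0.031 and 0.191, and the CD70TG*Ifng-/- arrays 0.539, -0.031 and -0.184. All 3 CD70TG arrays lay above all 3 WT arrays, and the CD70TG*Ifng-/- arrays ran from below to above CD70TG. The change in CD70TG against WT was 0.56 ± 0.15 (SE, n = 3 per group, 1.48-fold, limma adjusted p = 0.0302). Mrpl45, which helps to hold the ribosome at the inner membrane near the tunnel exit, rose by 0.45 (adjusted p = 0.0335), and Mrpl23, another tunnel protein, by 0.41 (adjusted p = 0.0378).

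Mrpl38 lies in the central protuberance, a landmark of the large subunit. Its WT arrays had -0.485, -0.258 and -0.210, the CD70TG arrays 0.229, 0.145 and 0.155, the Ifng-/- arrays -0.054, 0.102 and 0.054, and the CD70TG*Ifng-/- arrays 0.061, -0.306 and -0.114. The 3 CD70TG arrays were the highest of the 12. Its change was 0.49 ± 0.10 (adjusted p = 0.00659), the lowest adjusted p of the family. Mrpl40, a protein of the same region, rose by 0.45 ± 0.10 (adjusted p = 0.0158). Mrpl19, near the interface with the small subunit, rose by 0.45 (adjusted p = 0.0158), Mrpl35 by 0.44 (adjusted p = 0.0205) and Mrpl37, a mitochondria-specific protein, by 0.42 (adjusted p = 0.015). Mrps30 rose by 0.34 (adjusted p = 0.0365).

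Mrpl12 and Mrpl11 belong to the stalk, which recruits translation factors, and neither passed. Mrpl12, which also binds the mitochondrial RNA polymerase, had a change of 0.10 ± 0.09 (adjusted p = 0.526). Its WT and CD70TG arrays overlapped, the former at -0.149, -0.069 and 0.126 and the latter at 0.002, -0.005 and 0.203. Mrpl11, at the base of the stalk, changed by 0.18 ± 0.11 (adjusted p = 0.32). The median change of the 50 large-subunit members was 0.28. Of the 31 with a bacterial counterpart 10 rose (median 0.27), and of the 19 mitochondria-specific ones 9 rose (median 0.34).

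In the small subunit 7 of 26 members rose and 0 fell (median 0.27). Mrps17, which binds the ribosomal RNA early in assembly, measured -0.235, -0.283 and -0.187 on the WT arrays and 0.182, 0.163 and 0.135 on the CD70TG arrays. Arrays within both groups lay close together, and the change was 0.40 ± 0.08 (adjusted p = 0.00666). Its pattern was closest to the family's: over the 12 arrays it had a Pearson correlation of 0.94 with the median of the other members. Mrps12, at the decoding centre, changed by 0.10 ± 0.09 (adjusted p = 0.52). Among the 3 relatives of the bacterial S18 protein, Mrps18c rose by 0.35 (adjusted p = 0.031), and Mrps18b (0.37, adjusted p = 0.0615) and the large-subunit Mrps18a (0.25, adjusted p = 0.135) did not pass. Mrps36, outside the mitoribosome, changed by 0.09 ± 0.11 (adjusted p = 0.613).

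The 5 members below 0 were Mrps10 (-0.22), Mrps16 (-0.13), Mrpl28 (-0.05), Mrps24 (-0.03) and Mrps2 (-0.03), and none of them passed. Mrps10, with the lowest change (adjusted p = 0.233), measured -0.032, 0.087 and 0.128 on the WT arrays and -0.331, -0.126 and -0.022 on the CD70TG arrays, and the groups overlapped. Mrps10, Mrps16, Mrps2 and Mrps24 were also the 4 members that correlated negatively with the median of the others over the 12 arrays, with Mrps10 lowest at -0.66. The median correlation was 0.80, and 67 members were over 0.5; arrays share group, tissue and processing, so these values describe the arrays alone. Mrpl50 (0.51, adjusted p = 0.0597) and Mrps26 (0.48, adjusted p = 0.0711) had changes as large as those named above but did not pass, with a wide spread within WT. At the threshold, Mrps5 passed (adjusted p = 0.0436) and Mrpl17 (0.0502) and Mrpl48 (0.0504) did not. Of the 8 members with several probe sets, Mrpl47 alone had probe sets that differed in sign (0.37 and -0.11). Mrps17, Mrps5, Mrpl17, Mrpl48, Mrpl50, Mrps26 and the members with negative changes other than Mrps10 were named after their values were seen.

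**Figure D2:**
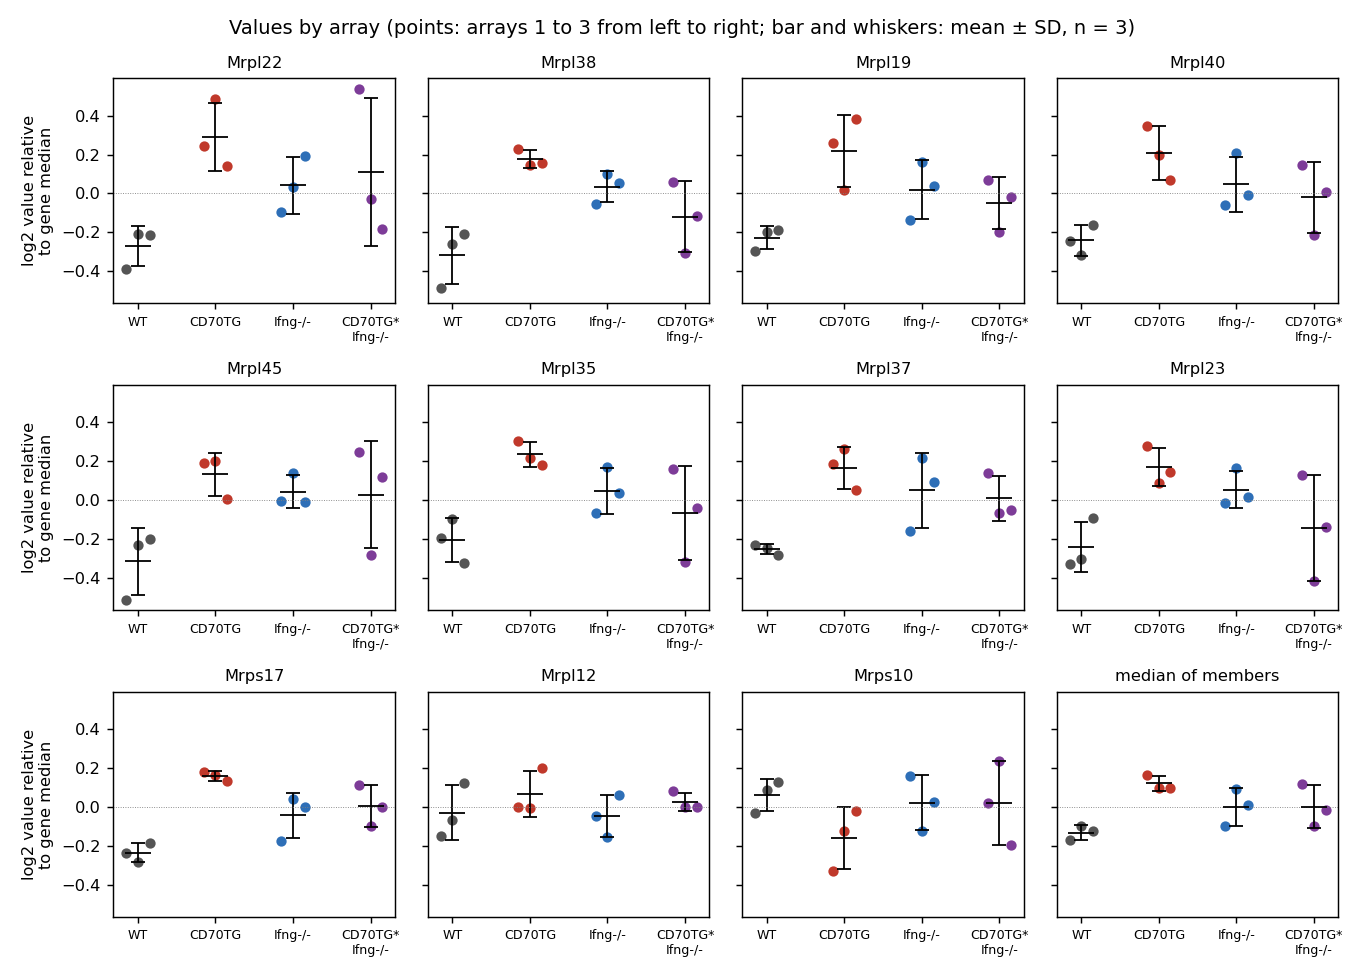
Log2 value relative to the gene's median by group for 11 members and for the median of all 77 (last panel), with a point for each of 3 arrays and the mean with its SD. In the panels from Mrpl22 to Mrps17 every CD70TG point lies above every WT point, and in the Mrpl12 and Mrps10 panels the groups overlap.

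The count of 26 moved with the arrays included. It was 3 without CD70TG 1, 4 without WT 1, 7 without CD70TG 2, and 13 without WT 2 or WT 3, with 0 lower in each, and the members' median change stayed between 0.24 and 0.29 in all 12 fits with 1 array left out. Mrpl38 and Mrps17 passed in all 12. The share of all genes called in each of these fits is not given here. The counts therefore do not tell a loss of calls in the family from a loss over the whole array.

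Without Ifng, no member differed past the threshold between transgenic and other mice. In CD70TG*Ifng-/- against Ifng-/-, limma called 0 of 77 members (0.156% of all genes were called higher and 2.35% lower), and 0 had an unadjusted p under 0.05. The members' median change was -0.00, against 0.04 for all genes, and 37 of 77 lay above 0. The changes ran from -0.22 for Mrpl36 (adjusted p = 0.524) to 0.17 for Mrps9, a small-subunit protein (adjusted p = 0.465). Mrps5 (0.16, adjusted p = 0.491) and Mrpl33 (-0.16, adjusted p = 0.492) had the next smallest p. The 3 arrays of the groups did not overlap in 1 member, which was lower, against 7.09% of all genes lower and 9.32% higher. The members' median was -0.100, 0.094 and 0.011 on the Ifng-/- arrays and 0.120, -0.098 and -0.016 on the CD70TG*Ifng-/- arrays, and the ranges of these groups overlapped.

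The difference between the 2 transgene effects was tested as an interaction, the change with Ifng minus the change without it. It passed for 1 member, Mrpl38 (1.30% of members, where 1.61% of all genes were called higher), at 0.65 ± 0.14 (limma adjusted p = 0.0335). Its change was 0.49 with Ifng and -0.15 without it. Without any single one of 8 of the 12 arrays it did not pass; the 8 are WT 1, CD70TG 1 to 3, Ifng-/- 2 and 3, and CD70TG*Ifng-/- 2 and 3 (0.55 to 0.66, adjusted p from 0.0527 to 0.101). Mrpl24 (0.45, adjusted p = 0.0671), a further tunnel protein, and Mrpl23 (0.61, adjusted p = 0.0763) had the next smallest p. Of the 77 members 70 lay above 0, against 42.1% of all genes, and 30 had an unadjusted p under 0.05, all higher (39% of members, against 12.1% of all genes higher). The median was 0.25, against -0.04 for all genes, and the lowest value was that of Mrps10 (-0.22). The share of members past the threshold was near that of all genes. In the higher level class 71.3% of genes lay above 0 and 26.1% were higher at an unadjusted p under 0.05 (members 84.6% and 61.5%). In the lower class these were 37.5% and 9.89% (members 92.2% and 34.4%). Of 82 respiratory chain and ATP synthase genes 71 lay above 0, 32.9% were higher at that p and 4 passed. Of 61 cytosolic ribosomal proteins 57 lay above 0, 32.8% were higher and 2 passed. The shift was therefore not particular to the family.

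**Figure D3:**
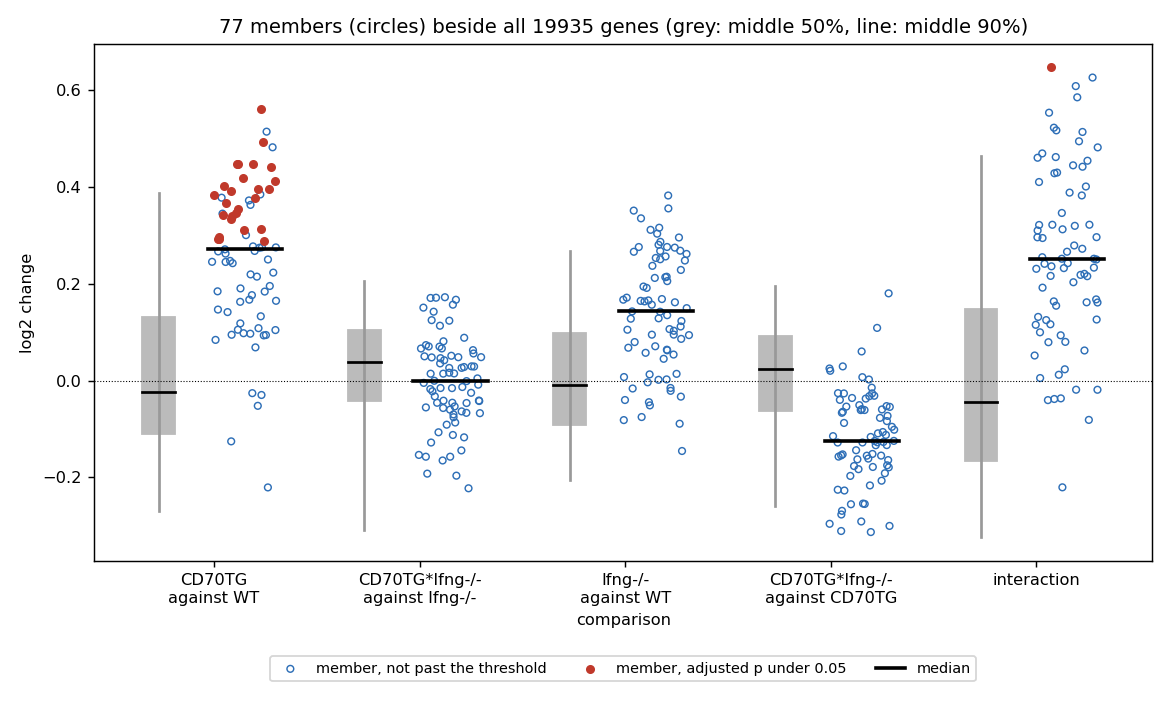
Log2 change of each of the 77 members (circles, filled where adjusted p was under 0.05) in the 4 comparisons and the interaction, beside the middle 50% (grey box) and the middle 90% (line) of all 19935 genes. Members lie mostly above 0 in CD70TG against WT, Ifng-/- against WT and the interaction, around 0 in CD70TG*Ifng-/- against Ifng-/-, and mostly below 0 in CD70TG*Ifng-/- against CD70TG.

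Loss of Ifng by itself gave no call in the family. In Ifng-/- against WT, limma called 0 of 77 members (0.00502% of all genes were called higher). An unadjusted p under 0.05 was found in 20, all of them higher (26% of members, against 8.5% of all genes). These were 13 of 64 members of the lower class (20.3%, against 6.45% of genes there) and 7 of 13 of the higher class (53.8%, against 21.4%). The median change was 0.14 (all genes -0.01). It was 0.13 in the lower class (genes there -0.02) and 0.26 in the higher (genes there 0.11). In 30 members all Ifng-/- arrays lay above all WT arrays, and in 0 below them (9.43% and 9.17% of all genes). Mrpl49, a large-subunit protein, had 0.38 ± 0.09 (adjusted p = 0.217), with -0.461, -0.313 and -0.215 in WT and -0.012, 0.160 and 0.012 in Ifng-/-. Mrpl38 (0.35, adjusted p = 0.239) and Mrpl24 (0.28, adjusted p = 0.251) followed, and Mrps24 was lowest (-0.15, adjusted p = 0.495).

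Among transgenic mice, most members had lower values in the absence of Ifng, and none passed. In CD70TG*Ifng-/- against CD70TG, limma called 0 of 77 members (0.426% of all genes were called higher and 0.988% lower), and 11 had an unadjusted p under 0.05, all lower (14.3%, against 6.57% of all genes lower). The median change was -0.12, against 0.02 for all genes, and 69 lay below 0. The arrays of the groups did not overlap in 11 members, all lower (8.27% of all genes lower, 9.31% higher). Mrpl38 (-0.30, adjusted p = 0.214), Mrpl33 (-0.26, adjusted p = 0.224) and Mrpl35 (-0.30, adjusted p = 0.273) had the smallest p, Mrpl23 the lowest change (-0.31, adjusted p = 0.301) and Mrps10 the highest (0.18, adjusted p = 0.596). Of 82 respiratory chain and ATP synthase genes 75 lay below 0, and 23.2% were lower at an unadjusted p under 0.05. Of 61 cytosolic ribosomal proteins 56 lay below 0, and 19.7% were lower at that p. It was 1 of 17 translation factors and 1 of 16 synthetases. In the higher level class 11.2% of genes were lower at that p (members 15.4%), and in the lower class 5.84% (members 14.1%). The lower values were therefore not particular to the family. The comparisons share arrays, so their values are set side by side and not as independent support.

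The order of the group means was WT lowest and CD70TG highest in most members. WT was the lowest of the 4 means in 62 of 77 (80.5%, against 29.8% of all genes) and CD70TG the highest in 59 (76.6%, against 25.1%). The Ifng-/- mean lay between these in 56 (72.7%, against 4989 of the 19935 genes). The array medians of the members were -0.171, -0.097 and -0.126 in WT and 0.166, 0.098 and 0.099 in CD70TG. These 2 groups did not overlap in the medians, and the arrays of the Ifng-/- and CD70TG*Ifng-/- groups lay between their extremes. Within a group the members' median SD was 0.0964 in WT, 0.0920 in CD70TG, 0.130 in Ifng-/- and 0.134 in CD70TG*Ifng-/-. Over all genes it was 0.0949, 0.0941, 0.108 and 0.0945 in the same order. The members' wider spread in Ifng-/- and CD70TG*Ifng-/- limits the precision of the comparison between these groups.

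A share of the genes that work with the mitoribosome rose as well, and the rest did not pass. In CD70TG against WT, 5 of 17 translation factors rose (median 0.25), including the elongation factors Tufm (0.51, adjusted p = 0.0113) and Gfm1 (0.49, adjusted p = 0.0102) and the initiation factor Mtif2 (0.45, adjusted p = 0.0178). Of 16 mitochondrial aminoacyl-tRNA synthetases 5 rose (median 0.24), and the tyrosyl enzyme Yars2 rose by 0.59 (adjusted p = 0.00281). Of 27 assembly and rRNA maturation genes 6 rose (median 0.15), among them the GTPase Noa1 (0.51, adjusted p = 0.00723). Of 21 genes of mitochondrial transcription and mRNA handling 7 rose (median 0.27), with Tbrg4 (0.42, adjusted p = 0.00909). Of 4 mitoribosomal proteins under other symbols, Dap3, a GTP-binding small-subunit protein, rose (0.40, adjusted p = 0.0139). The shares called higher were 29.4% of translation factors, 31.2% of synthetases, 22.2% of assembly genes and 33.3% of transcription and mRNA genes. Of these lists 2, 0, 2 and 2 genes were in the higher level class. Beside them, 8.23% of all genes were called higher, 22.5% in the higher level class and 5.96% in the lower.

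Lists outside the mitochondrial translation machinery also held genes that rose. Of 82 respiratory chain and ATP synthase genes 20 rose (median 0.17), with the complex I subunit Ndufs3 at 0.53 (adjusted p = 0.00232), and of 61 cytosolic ribosomal proteins 12 rose (median 0.17), with Rps18 at 0.47 (adjusted p = 0.00281). These lists had 53 and 48 genes in the higher level class, whose median over all genes was 0.19. In that class 22.5% of genes were called higher, and the shares of the 2 lists, 24.4% and 19.7%, were near this. None of the genes in the 8 lists fell. In CD70TG*Ifng-/- against Ifng-/-, 1 of the assembly genes rose and no other gene of the lists passed. The 2 mitochondrially encoded genes on the array, COX2 (-0.17, adjusted p = 0.141) and ND3 (-0.21, adjusted p = 0.243), did not pass in CD70TG.

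**Figure D4:**
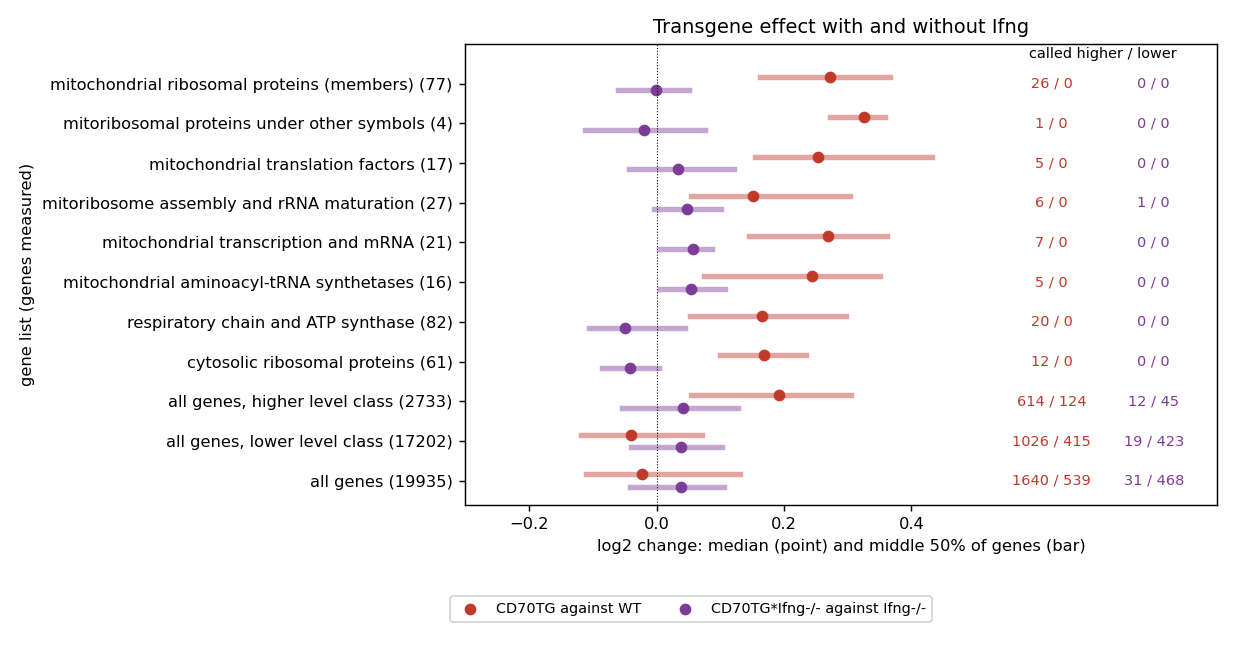
Median log2 change (point) and middle 50% of genes (bar) for the 77 members, 7 related gene lists and all genes, in CD70TG against WT and in CD70TG*Ifng-/- against Ifng-/-, with the numbers of genes called higher and lower at the right. The medians of the members and of the 7 lists are above 0 with Ifng (0.15 to 0.33) and between -0.05 and 0.06 without it.

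Markers of other cell types differed with the transgene, and both transgene effects on them are given side by side. In CD70TG against WT, 12 of 12 macrophage markers fell (median -1.78), and without Ifng 12 of 12 fell (median -2.82). All 8 B lineage markers fell with Ifng (median -0.87) and 2 of 8 without it (median -0.39). Of the 8 neutrophil markers 4 fell with Ifng (median -1.48) and 0 without it (median -0.97), and of the 5 eosinophil and basophil markers 3 fell with Ifng (median -1.81) and 1 without it (median -1.08). Of the 4 early granulocyte markers 1 rose with Ifng (median 1.04) and 0 passed without it (median -0.41), and 3 of 4 fell in CD70TG*Ifng-/- against CD70TG (median -1.39). The interaction of these 4 had a median of 1.46, and 0 of them passed it, with 4 at an unadjusted p under 0.05. Of the 7 T and NK markers 1, Cd4, fell with Ifng (-0.52, adjusted p = 0.00408) and 1 fell without it, and 0 of 3 megakaryocyte markers passed in either. Of the 8 erythroid markers 1 fell with Ifng (median 0.09) and 0 without it (median 0.10). Of the 9 proliferation genes 0 passed in either (medians 0.23 and 0.11). In such a mixture, fewer cells of a type and less RNA per cell cannot be told apart. The part of these shifts in the members' rise was not tested. The mean of the macrophage markers spanned 0.753 to 1.49 (WT), -1.04 to -0.753 (CD70TG), 1.23 to 1.58 (Ifng-/-) and -1.50 to -1.41 (CD70TG*Ifng-/-). The mean of the early granulocyte markers spanned -0.177 to 0.267 (WT), 0.519 to 1.90 (CD70TG), -0.352 to 0.562 (Ifng-/-) and -0.745 to 0.034 (CD70TG*Ifng-/-). The mean of the neutrophil markers spanned 1.03 to 1.35 (WT), -0.521 to -0.057 (CD70TG), -0.724 to 2.05 (Ifng-/-) and -0.693 to -0.014 (CD70TG*Ifng-/-). In CD70TG, Ifng-/- and CD70TG*Ifng-/- the array with the highest member median had the lowest neutrophil mean of its group, and in WT it did not. The same held for the eosinophil and basophil mean and for the T and NK mean, so the pattern was not particular to neutrophils. It was seen after the values were known, with 3 arrays per group, and was not tested.

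Myc, a transcription factor known to raise genes of ribosome and mitochondrial biogenesis, was 1.25 ± 0.17 higher in CD70TG than in WT (limma adjusted p = 0.000467). The WT arrays had -0.773, -0.491 and -0.452, the CD70TG arrays 0.319, 0.598 and 1.12, the Ifng-/- arrays -0.116, 0.239 and 0.036, and the CD70TG*Ifng-/- arrays 0.060, -0.260 and -0.036. Without Ifng the transgene effect on Myc was -0.13 (adjusted p = 0.785), and the interaction was 1.38 (adjusted p = 0.0119). Its part in the members' rise was not tested.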

How the data were processed

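The authors deposited log2 values computed with RMA, per the submitters' processing notes; its version is not given in the sources used here. No label states the log base or the direction, and those of RMA were assumed. Each probe set is centred on its median. Probe sets were named from the GEO platform annotation: 21780 had 1 symbol, 1605 several and 5430 none. Probe sets of a gene were averaged (998 genes). Groups came from the labels. A model with 4 group means was fitted to all 12 arrays with limma 3.58.1 (lmFit and eBayes, two-sided, 8 residual degrees of freedom) in R 4.3.3. P-values were adjusted by Benjamini-Hochberg over 19935 genes, and all adjusted p-values are limma's. The test was tried on simulated data. The members and lists were chosen with earlier results of these data known. Named members are 8 fixed ones, the 8 largest rises and falls past the threshold in CD70TG against WT (4 in other comparisons), the 3 smallest p where fewer passed, the highest and lowest change, and up to 3 genes per related list. Alternatives were other centrings, quantile normalization, robust fitting, array weights, a replicate block, separate fits, probe sets and arrays left out. The letters and promoters come from RefSeq. A filter on low signal was possible only through the level classes. The same replicate numbers in different groups did not pair the mice.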

Additional observations from a re-analysis of the deposited data

Results flagged for a closer look

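The transgene's effects with and without Ifng differed past the threshold for Mrpl38 in the interaction test, with a log2 difference of 0.65 ± 0.14 (SE, 3 mice in each group, limma adjusted p = 0.0335). The change was 0.49 with Ifng and -0.15 without it. It was the 1 member of 77 that passed in the fit to all genes and all 12 arrays with equal weights and no block. With array weights 15 passed, but CD70TG 2 and CD70TG*Ifng-/- 3 then weighed 4.37 and 4.24, and the other arrays 0.407 to 1.67. The share of all genes called with those weights is not given here. The call of Mrpl38 was lost without any single one of 8 of the 12 arrays (adjusted p from 0.0527 to 0.101). It was also lost with the replicate block (adjusted p = 0.0723). In groups of 3 arrays, no value was tested for a single array far from the others.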

How the results depend on the processing

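In CD70TG against WT, 26 members were called higher; the count was 15 after quantile normalization, 44 with array weights, 15 with the replicate block and 10 of 13 when only genes of the higher level class were fitted (median 0.35). With 1 array left out it ran from 3 to 33. No member was called lower in any of these. The shares of all genes called in these fits are not given here, so the counts do not set the family apart from the whole array. Of the 26, 12 passed under all 3 scalings, and none changed sign in 22 settings. The replicate block has no stated pairing: same-numbered arrays of 2 groups correlated by -0.401 to 0.311, and 6 of 18 pairs were over 0.1. Array weights gave 1 call in CD70TG*Ifng-/- against Ifng-/-, 18 calls in CD70TG*Ifng-/- against CD70TG and 15 in the interaction. These weights were 4.37 for CD70TG 2, 4.24 for CD70TG*Ifng-/- 3 and 0.407 to 1.67 for the other arrays. The weighted means of those groups therefore rest largely on 1 array each. The interaction had 0 calls with the replicate block, 5 with the higher class only (median 0.41), 0 with CD70TG 3 and Ifng-/- 2 both left out (chosen after seeing the data), and 0 to 8 with 1 array left out. The median in Ifng-/- against WT was 0.26 with the higher class only. Of the named genes' values under the alternatives, 642 kept direction and side, 57 no longer passed, 16 newly passed and 0 reversed. The cause was not tested. The interaction was not fitted with only the groups compared, since it needs all of them. Values are relative, so signal over background cannot be given beyond the level classes.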
